A study of Homo sapiens with 4 samples.

Results

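The cytosolic heat shock proteins studied here are 10 genes taken by symbol from 58870 in the deposited tables: HSP90AA1, HSP90AB1, HSPA8, HSPA1A, HSPA1B, HSPH1, DNAJB1, HSPB1, CRYAB and the transcription factor HSF1. All 10 passed the filter on low counts, which left 16749 genes for testing. They were measured in BJ cells, a line of human foreskin fibroblasts, in 2 libraries from cells given the solvent DMSO (control) and 2 from cells given Dox (the labels' abbreviation of a compound) at 250 nM. By the series design both groups were exposed for 24 hours and then left for 10 days to senesce, although the wording of the sample protocol can be read in the other order. The titles call the control cells young and the Dox cells aged. Total RNA was sequenced. The series title concerns centromeres in ageing, and its design asks for gene expression in Dox-treated against DMSO-treated cells. No heat shock was part of the design. All libraries come from 1 cell line, and the labels leave unsaid if replicates came from separate cultures. The p-values here cover the spread among these 4 libraries alone, which may be technical.

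Heat shock proteins are chaperones that bind unfolded or partly folded proteins, keep them from aggregating and pass them between folding machines. HSP70 proteins work in cycles of ATP binding in which J-domain proteins deliver clients and nucleotide exchange factors release them, HSP90 completes the folding of kinases and steroid receptors, and small heat shock proteins hold unfolded clients without ATP. HSF1 is held inactive by chaperones in unstressed cells. When unfolded protein draws the chaperones away, it forms trimers that bind repeats of the unit nGAAn, the heat shock element, ahead of the inducible chaperone genes.

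The bases ahead of 6 members are shown because these genes are textbook carriers of heat shock elements. Among them, HSP90AA1 rose, DNAJB1 fell and the others did not pass the test described below. A link between the printed bases and the changes in RNA was not tested. Each line holds 100 bases upstream of a transcript start in RefSeq (GRCh38.p14), or 30 where the stretch lies in the annotated UTR of a longer transcript (HSP90AA1 and HSPA8), read 5′ to 3′ on the strand of the gene, with capitals for every match to GAANNTTC or TTCNNGAA, the 2 ways in which neighbouring units face each other. The stretches are chr14:102087104-102087133 (minus strand) for HSP90AA1, chr6:44247760-44247859 (plus strand) for HSP90AB1, chr11:123062171-123062200 (minus strand) for HSPA8, chr6:31815390-31815489 (plus strand) for HSPA1A, chr6:31827586-31827685 (plus strand) for HSPA1B and chr19:14518407-14518506 (minus strand) for DNAJB1. In GENCODE 29 those of HSP90AA1, HSP90AB1, HSPA8 and DNAJB1 lie wholly within the span of the gene, that of HSP90AB1 outside all of its exons, and those of DNAJB1 and HSPA1A reach 14 and 26 bases into an exon.
HSP90AA1: cTTCCGGAAGGTTCgggaggcTTCTGGAAa
HSP90AB1: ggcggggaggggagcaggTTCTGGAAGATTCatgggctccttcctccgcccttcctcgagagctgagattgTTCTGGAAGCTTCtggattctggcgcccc
HSPA8: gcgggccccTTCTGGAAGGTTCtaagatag
HSPA1A: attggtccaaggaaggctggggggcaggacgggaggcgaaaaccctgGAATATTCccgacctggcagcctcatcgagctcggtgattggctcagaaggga
HSPA1B: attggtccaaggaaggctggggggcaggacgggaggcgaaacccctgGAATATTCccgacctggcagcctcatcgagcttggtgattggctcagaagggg
DNAJB1: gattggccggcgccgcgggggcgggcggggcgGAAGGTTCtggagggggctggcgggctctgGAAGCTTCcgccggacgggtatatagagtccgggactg
Overlapping capitals form 1 run of 3 units in HSP90AA1, 2 in HSP90AB1 and 1 in HSPA8. HSPA8 has another such run from 230 bases before its start, outside the 30 bases printed. In all, 13 windows of 250 upstream bases were read for 8 members, and 7 windows, 1 in each member but HSPH1, held a pair of units. HSP90AA1, HSP90AB1 and DNAJB1 have several starts in RefSeq, and their other windows held none. HSPB1 held 1 such pair, 182 bases before its start. CRYAB had no entry. Of 35116 RefSeq promoter windows of the same length searched on both strands, 11.6% held at least 1 of the 2 patterns and 0.441% held a run of 3 units, in which both patterns overlap. A match describes the letters and is no evidence of binding.

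In the Dox libraries HSP90AA1 and HSPH1 rose, CRYAB and DNAJB1 fell, and HSP90AB1, HSPA8, HSPA1A, HSPA1B, HSPB1 and HSF1 did not pass the test. The largest changes were those of HSP90AA1, 1.65-fold higher, and CRYAB, 1.57-fold lower. Calls rest on edgeR's quasi-likelihood test with a Benjamini-Hochberg adjusted p under 0.05 over all tested genes. That rule called 16.5% of all tested genes higher and 13.8% lower, so 2 members in each direction is close to the share of genes at large. The 2 groups of libraries did not overlap for 7 of the 10 members in CPM (counts scaled by TMM to a common library total), against 69.1% of all tested genes. The median log2 fold change, Dox over control, was -0.11 for the members and -0.002 for all tested genes, and the median of its absolute size was 0.27 and 0.29. In bulk RNA, a change in the cells present and a change in RNA per cell cannot be told apart.

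**Figure D1:**
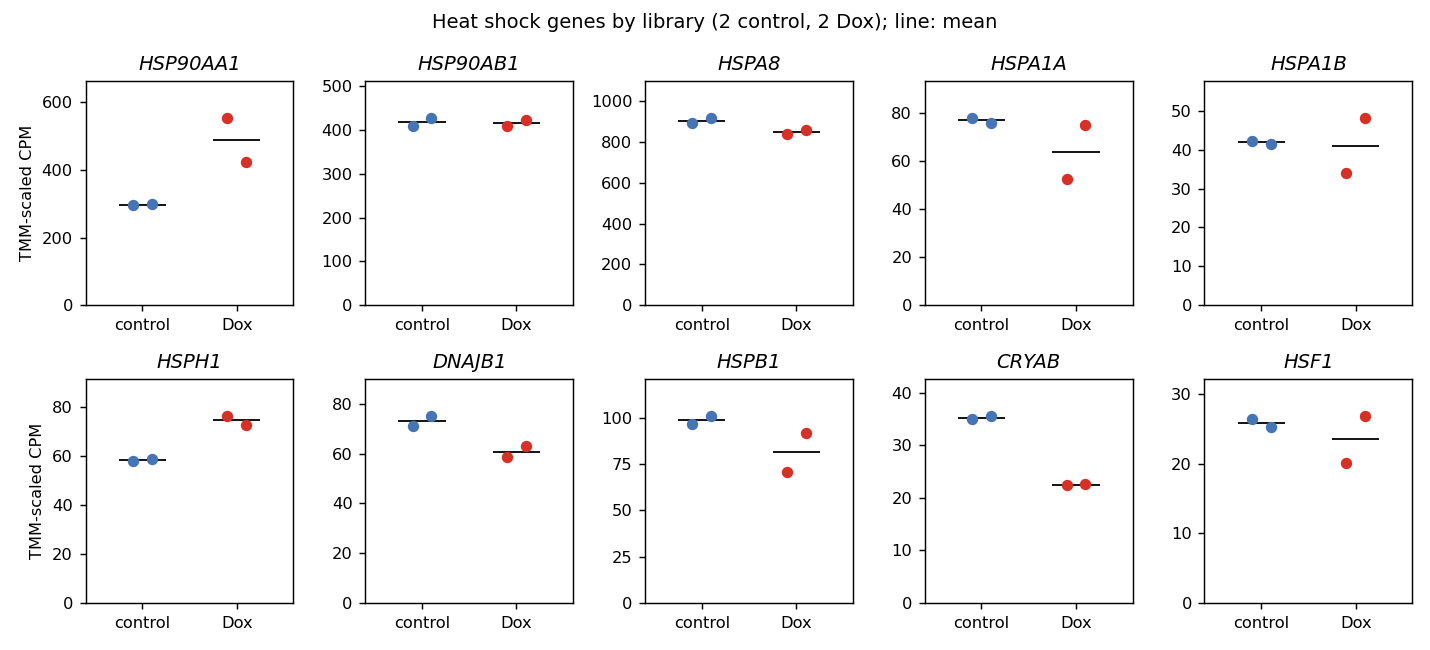
TMM-scaled CPM (vertical axis from 0, 1 panel per member) in each of the 4 libraries, with points for libraries and lines for group means. HSP90AA1 lies higher and CRYAB lower in both Dox libraries, and the Dox libraries stand apart from each other for HSPA1A, HSPA1B, HSPB1 and HSF1.

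Expected counts summed to between 42744729 and 47798920 per library. The control libraries resembled each other more closely than the Dox libraries did, with a chi-square per degree of freedom of 2.4 against 60.5 (genes whose counts summed to 20 or more). The members together took 0.196% and 0.201% of all counts in control cells and 0.213% and 0.22% in Dox cells. All 10 fibroblast markers exceeded 1 TPM in at least 1 library, with a summed level of 2150 and 2210 TPM in control cells and 1620 and 2920 TPM in Dox cells. Endothelial markers summed to 0.23 to 0.43 TPM, melanocyte markers to 2.14 to 3.32 TPM with SOX10 at 0, and keratinocyte markers to 12.9 to 19.6 TPM with KRT5 and KRT1 at 0. Leukocyte markers summed to 1.18 and 1.17 TPM in control cells and 4.14 and 7.38 TPM in Dox cells. CD3E was at 0 throughout and 5 of the 6 leukocyte markers stayed under 1 TPM. So did 6 of the 8 keratinocyte markers, 5 of the 6 melanocyte markers and all 6 endothelial markers. The part of these markers in the members' values was not tested.

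HSP90AA1 encodes the stress-inducible cytosolic HSP90 (ENSG00000080824, chromosome 14, 102080738 to 102139699 in GRCh38, minus strand). It stood at 295 and 298 CPM in control cells and at 553 and 425 CPM in Dox replicates 1 and 2. Both Dox libraries were above both control libraries, and they differed more from each other than the control libraries did. The means were 297 ± 2.22 and 489 ± 90.5 CPM (SD, n = 2 each), a log2 fold change of 0.72 (SE 0.13, edgeR adjusted p = 0.00855). The rise came to 0.50 on the log2 scale when Dox replicate 1 was left out and to 0.90 when Dox replicate 2 was, and the call held with each of the 4 libraries left out.

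HSP90AB1, the constitutive cytosolic HSP90 (ENSG00000096384, chromosome 6, 44246166 to 44253888, plus strand), had 409 and 426 CPM in control cells and 410.0 and 423 CPM in Dox cells. The Dox values lay between the control values. Its log2 fold change was -0.003 (SE 0.07, edgeR adjusted p = 0.977), and only 0.71% of tested genes had a smaller absolute change. The expected counts of HSP90AA1 were 0.722 and 0.7 of those of HSP90AB1 in control cells, and 1.35 and 1 times those of HSP90AB1 in Dox cells. Reads of the inducible gene thus went from fewer than to at least as many as those of the constitutive gene. These counts are not scaled by transcript length. On the TPM scale, which is, the ratio was 0.551 and 0.532 in control cells and 1.02 and 0.763 in Dox replicates 1 and 2. By TPM, HSP90AA1 thus stayed below HSP90AB1 in Dox replicate 2. The ratio of HSP90AA1 to HSP90AB1 and the other pair ratios below were chosen after values were seen and carry no test. The stretches printed above hold 1 run of 3 heat shock element units for HSP90AA1 and 2 such runs for HSP90AB1.

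HSPA8, the constitutive HSP70 that also uncoats clathrin vesicles (ENSG00000109971, chromosome 11, 123057489 to 123063230, minus strand), was the member with the most reads. It stood at 893 and 916 CPM in control cells and at 839.9 and 859.9 CPM in Dox cells. The groups did not overlap, but the difference was small, with a log2 fold change of -0.09 (SE 0.07, edgeR adjusted p = 0.362). It supplied 44.6% and 44.6% of the members' summed counts in control cells and 39.3% and 40.8% in Dox cells, while the share of HSP90AA1 went from 14.7% and 14.5% to 25.9% and 20.2%.

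HSPA1A and HSPA1B, the stress-inducible HSP70 genes, are neighbours on chromosome 6 (ENSG00000204389, 31815464 to 31817946, and ENSG00000204388, 31827735 to 31830255, both plus strand). They encode near-identical proteins, and their printed upstream stretches carry the same GAATATTC. HSPA1A stood at 77.6 and 75.9 CPM in control cells and at 52.5 and 74.9 CPM in Dox replicates 1 and 2. Its groups were apart by less than 1 CPM, and Dox replicate 1 was far below the other 3 libraries. HSPA1B had 42.3 and 41.4 CPM in control cells and 34.1 and 48.1 CPM in Dox cells, so that the Dox values lay on either side of the control values. For HSPA1A the fit gave -0.0465 when Dox replicate 1 was left out and -0.55 when Dox replicate 2 was. The log2 fold changes in all 4 libraries were -0.27 (SE 0.16, edgeR adjusted p = 0.25) for HSPA1A and -0.03 (SE 0.16, edgeR adjusted p = 0.909) for HSPA1B.

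The split of reads between these 2 copies is uncertain. Of the 50-base windows of the longest HSPA1A transcript, 72.6% occur in HSPA1B, and 71.4% in the other direction. Their expected counts were therefore also summed, to 119.9 and 117 CPM in control cells and 86.6 and 123 CPM in Dox cells (log2 fold change -0.18, SE 0.16, edgeR adjusted p = 0.431). The sum did not pass the test. It came to 0.0398 when Dox replicate 1 was left out and to -0.45 when Dox replicate 2 was. Taken alone, HSPA1B was at -0.30 without Dox replicate 2 and reversed to 0.19 without Dox replicate 1. AL671762.1, a transcript on the same strand that overlaps HSPA1B, held 269.87 and 554.84 control and 55.55 and 269.04 Dox expected counts. Adding it gave -0.24. The ratio of HSPA1A to HSPA1B counts was 1.83 in both control libraries and 1.54 and 1.56 in Dox cells. HSPA6, the HSP70 gene that is near silent without stress, had 6 and 4 control and 9 and 22 Dox counts and was too low to be tested.

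HSPH1 encodes HSP110, a nucleotide exchange factor for HSP70 (ENSG00000120694, chromosome 13, 31134974 to 31162388, minus strand). It stood at 58.2 and 58.7 CPM in control cells and 76.4 and 72.9 CPM in Dox cells. Both Dox libraries were clearly above the closely matched controls. Its means were 58.4 ± 0.339 and 74.6 ± 2.44 CPM (SD, n = 2 each), a 1.28-fold rise (log2 fold change 0.35, SE 0.07, edgeR adjusted p = 0.0126). DNAJB1, the J-domain protein that delivers clients to inducible HSP70 (ENSG00000132002, chromosome 19, 14514770 to 14529770, minus strand), stood at 71.1 and 75.1 CPM in control cells and 58.5 and 62.9 CPM in Dox cells. Both Dox libraries were below both controls. It fell 1.2-fold, from 73.1 ± 2.77 to 60.7 ± 3.12 CPM (SD, n = 2 each, log2 fold change -0.27, SE 0.08, edgeR adjusted p = 0.043). These 2 partners of HSP70 thus moved in opposite directions. The ratio of HSPH1 to DNAJB1 counts was 0.818 and 0.781 in control cells and 1.3 and 1.16 in Dox cells. Neither call held without control replicate 1 or control replicate 2 (edgeR adjusted p = 0.255 and 0.244 for HSPH1, range 4.38e-17 to 1 over its alternatives; 0.275 and 0.463 for DNAJB1, range 7.17e-12 to 1), and DESeq2's Wald test did not call DNAJB1.

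The small heat shock proteins were both lower in Dox on average, and 1 of them passed. CRYAB, alpha-B crystallin, which guards desmin and other intermediate filaments (ENSG00000109846, chromosome 11, 111908565 to 111923722, minus strand), stood at 35.0 and 35.6 CPM in control cells and 22.5 and 22.6 CPM in Dox cells. Replicates were almost equal within each group and the groups were far apart. It fell from 35.3 ± 0.389 to 22.5 ± 0.0403 CPM (SD, n = 2 each, log2 fold change -0.65, SE 0.08, edgeR adjusted p = 0.00193), a call that held with each library left out. HSPB1, HSP27, which binds actin and unfolded clients (ENSG00000106211, chromosome 7, 76302544 to 76304295, plus strand), had 96.6 and 101 CPM in control cells and 70.8 and 91.7 CPM in Dox cells. Both Dox values were below the controls, but most of the difference came from Dox replicate 1. Its log2 fold change was -0.28 (SE 0.13, edgeR adjusted p = 0.143).

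HSF1, the factor that switches the inducible genes on, stood at 26.4 and 25.2 CPM in control cells and 20.1 and 26.8 CPM in Dox cells. Dox replicate 2 was above both controls and Dox replicate 1 below them. Its log2 fold change was -0.14 (SE 0.14, edgeR adjusted p = 0.504), and it came to 0.0436 when Dox replicate 1 was left out and to -0.36 when Dox replicate 2 was. HSF1 activity is set largely on the protein, which was not measured. When Dox replicate 1 was left out, edgeR also called HSPA1B higher and HSPA8 and HSPB1 lower, and when Dox replicate 2 was left out it also called HSPA1A, HSPA1B, HSPA8, HSPB1 and HSF1 lower. In these fits the lone Dox library is assumed to vary like the controls, and calls grew over all tested genes too, to 26% higher and 26.7% lower and to 27% higher and 29.1% lower.

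**Figure D2:**
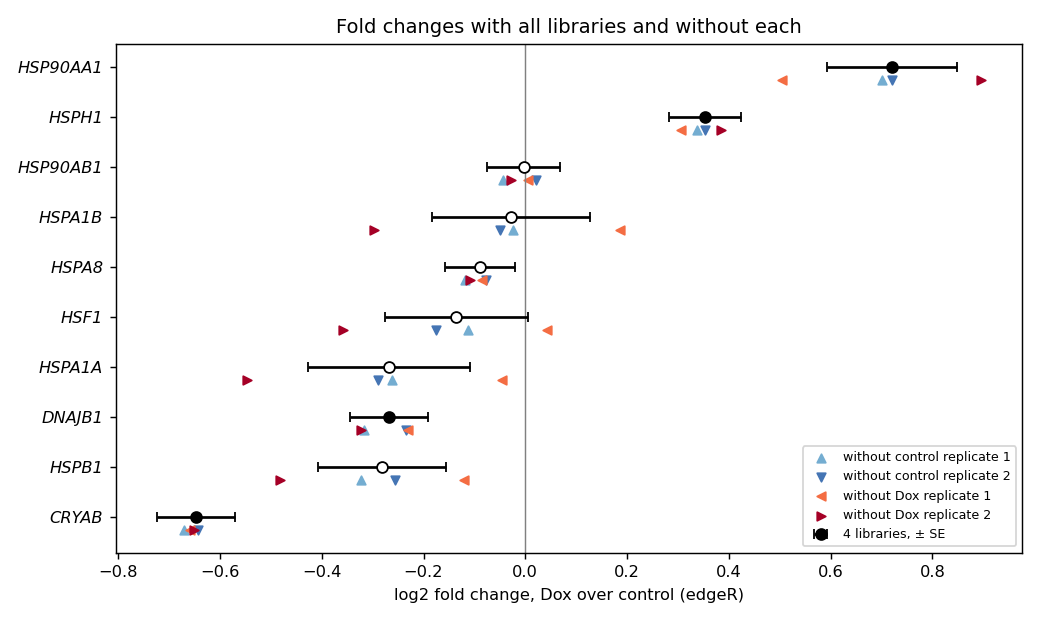
Log2 fold change, Dox over control, of each member by edgeR with its standard error (points and bars), filled where the adjusted p is under 0.05, above triangles for the fits that leave out each of the 4 libraries. HSP90AA1, HSPH1, CRYAB and DNAJB1 stay on 1 side of 0 in each fit drawn, as do HSPA1A, HSPA8 and HSPB1, which are not filled. HSPA1B lies at -0.30 without Dox replicate 2 and at 0.19 without Dox replicate 1.

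The Dox libraries differed most from each other for 5 members, HSP90AA1 and the 4 with the most GC-rich transcripts, and in opposite directions. Dox replicate 1 was below 0.8 of Dox replicate 2 for HSPA1A (0.701), HSPA1B (0.709), HSF1 (0.751) and HSPB1 (0.772), whose annotated transcripts have a mean GC content of 58.7 to 63.3%, the 4 highest of the members. HSP90AA1, at 46.5% GC, had a ratio of 1.30, and HSPH1, at 38.9% GC, one of 1.05. The ratio of control replicate 1 to control replicate 2 lay between 0.948 and 1.05 for all 10. Spearman's rho between the Dox log ratio and GC content was -0.855 over the 10 members, which share the same pair of libraries, and -0.607 over 16717 tested genes. In the control pair it was -0.0169. With an offset for the GC trend of each library, HSPA1A (edgeR adjusted p = 0.0334, range 3.79e-31 to 1 over its alternatives) and HSPB1 (edgeR adjusted p = 0.0043, range 1.96e-28 to 1) were also called lower, and HSP90AA1, HSPH1, CRYAB and DNAJB1 kept their calls. That offset called 24.3% of all tested genes higher and 20.5% lower.

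**Figure D3:**
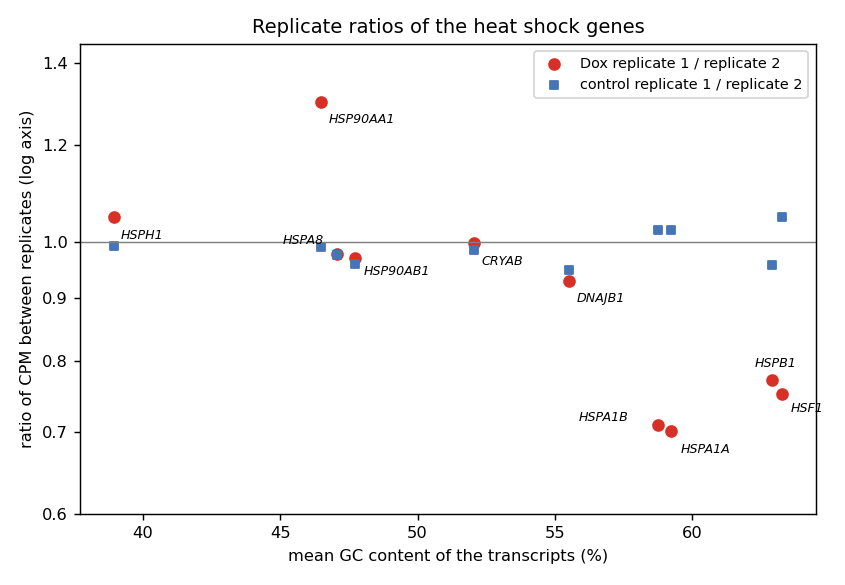
Ratio of replicate 1 to replicate 2 in CPM (log axis) against the mean GC content of the annotated transcripts (percent) for the 10 members, in the Dox pair and in the control pair. Dox ratios run from 0.701 to 1.30 and are lowest at high GC, whereas control ratios lie between 0.948 and 1.05.

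Per kilobase of effective transcript length, the order of levels in control cells was HSPA8 (453 ± 8.13 CPM per kilobase, SD, n = 2), HSP90AB1 (176 ± 5.19), HSPB1 (172 ± 4.69), HSP90AA1 (95.5 ± 0.353), CRYAB (54.3 ± 1.03), DNAJB1 (36.8 ± 1.57), HSPA1A (35.5 ± 0.808), HSPH1 (19.9 ± 1.04), HSPA1B (18.01 ± 0.282) and HSF1 (14.2 ± 0.648). In that order HSP90AB1 and HSPB1, and DNAJB1 and HSPA1A, overlapped between libraries. HSPA8 ranked 132 of 13432 protein-coding genes, so the constitutive chaperones were among the abundant messages of these cells, while HSF1 ranked 3992. In the Dox libraries HSP90AA1 reached 157 ± 29.1 CPM per kilobase, overlapped with HSP90AB1 (176 ± 3.68) and HSPB1 (142 ± 24.7), and passed from rank 530 to 339. CRYAB went from rank 987 to 1643 at 34.05 ± 0.0228 CPM per kilobase. HSPA8 (422 ± 7.67) stayed first among the members. DNAJB1 (30.5 ± 1.77), HSPA1A (28.8 ± 6.83) and HSPH1 (25.4 ± 1.21) came next after CRYAB, with HSPA1A overlapping both of the others, and HSPA1B (17.7 ± 4.23) and HSF1 (12.6 ± 2.53) came last.

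**Figure D4:**
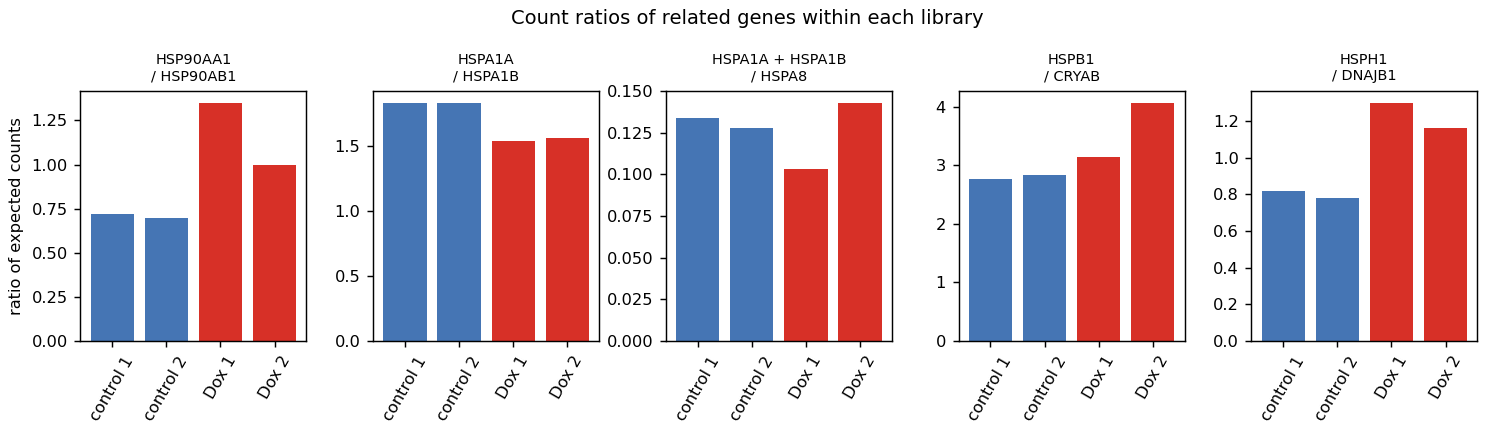
Ratios of expected counts, not scaled by transcript length, between related members (vertical axis from 0), with 1 bar for each of the 4 libraries and 1 panel per ratio. HSP90AA1 over HSP90AB1 goes from 0.7 and 0.722 in the control to 1 and 1.35 in Dox cells, and HSPH1 over DNAJB1 from 0.781 and 0.818 to 1.16 and 1.3.

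On the deposited TPM scale the Dox replicates stood further apart than in CPM for 9 of the 10 members, and Dox replicate 1 was the lower for all 10. HSP90AA1, the exception, was at 26.7 and 27.6 TPM in control cells and 43.9 and 54.2 TPM in Dox cells, and CRYAB at 15.4 TPM in both control and 8.41 and 13.5 TPM in Dox cells. For HSPA8 the values were 125 and 132 TPM against 103 and 170 TPM, so that the groups overlapped. The 7SL RNAs, short non-coding RNAs, took 43.9% and 43.8% of all TPM in control cells and 33% and 42.3% in Dox replicates 1 and 2. TPM shares a fixed total with them. Of the expected counts they took 17.6% and 17.4% in control cells and 14.7% and 12.6% in Dox replicates 1 and 2. Between the Dox libraries their share was thus lower in replicate 1 by TPM and higher there by counts. The part of the 7SL RNAs in the members' TPM values was not tested. By limma on log2(TPM + 1) or log2(TPM + 0.1), none of the 10 members passed, with 0 in either direction at an unadjusted p under 0.05. On counts 4 passed by edgeR and 3 by DESeq2 at an adjusted p, and 4 and 5 at an unadjusted p under 0.05. All tested genes called by limma on log2(TPM + 1) came to 3.56% higher and 1.18% lower. HSP90AA1 had its highest adjusted p there, 0.45 by limma (range 1.8e-147 to 0.45 over its alternatives), as did CRYAB, 0.877 (range 3.55e-25 to 0.877).

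The effective mix of transcripts, read from the mean length that RSEM assigns to a gene, varied for 9 members. It did not overlap between groups for 5 (HSPA1A, HSPA8, HSPB1, CRYAB and HSF1), against 37.9% of the 13586 tested genes whose length varied. CRYAB had 828 and 853 bases in control cells and 858 and 856 in Dox cells, and HSPA8 had 2186 and 2184 against 2213 and 2205. The shifts were small for both. Whether strand was used in counting is not given in the sources used here, and reads of genes that overlap on opposite strands could then be mixed. HSPB2 overlaps CRYAB (319 and 363 expected counts in control cells and 166 and 230 in Dox cells), WDR20 overlaps HSP90AA1 (689 and 725 against 664 and 774), TECR overlaps DNAJB1 (525 and 639 against 515 and 614) and DGAT1 overlaps HSF1 (306 and 296 against 254 and 394). Pseudogenes named for HSP90AA1 held at most 0.0503% as many counts as the gene, those for HSPA8 at most 0.1% and those for HSP90AB1 at most 0.263%.

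Around the members, 82 further genes of the chaperone network were read from 6 lists, of which 80 were tested, 7 rose, 15 fell and 58 did not pass by edgeR, where 16.5% of all tested genes were called higher and 13.8% lower. Their median log2 fold change was -0.09, against -0.002 for all genes. Fits without a control library (replicate 1, then 2) gave 4 and 3 rises and 6 and 7 falls among them, and fits without a Dox library (replicate 1, then 2) gave 15 and 18 rises and 29 and 39 falls. Calls over all tested genes moved the same way, from 8.62% higher and 6.23% lower and 7.83% higher and 5.73% lower without a control library to the shares given above for fits without a Dox library. The list of other HSP70, HSP110, HSP40 and small heat shock proteins moved both ways, with 4 of 20 tested genes higher, 5 lower and 11 not passing (median -0.08). Over the 4 fits that leave out 1 library, 3 to 7 of this list rose and 4 to 9 fell. HSPB3, a small heat shock protein of muscle, fell from 6.19 ± 0.0615 to 2.96 ± 0.284 CPM (SD, n = 2 each, log2 fold change -1.07, SE 0.14, edgeR adjusted p = 0.00327), and HSPA2, an HSP70 first known from the testis, fell from 65.4 ± 0.219 to 40.4 ± 5.10 CPM (log2 fold change -0.69, SE 0.10, edgeR adjusted p = 0.0039). The other genes named from this list were chosen after their values were seen. HSPB7 fell by 0.59, DNAJB6, which keeps polyglutamine proteins from aggregating, fell by 0.32, and HSPB2, the neighbour that overlaps CRYAB, fell by 0.78 on the log2 scale. DNAJB6 did not pass when either control library was left out.

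The largest changes in the network were rises. HSPA4L, an HSP110 relative of HSPH1, stood at 9.61 and 10.6 CPM in control cells and 37.5 and 31.7 CPM in Dox cells, 3.41-fold higher (log2 fold change 1.77, SE 0.12, edgeR adjusted p = 0.000259). DNAJB4, a J-domain protein of the DNAJB1 type, stood at 71.9 and 70.6 CPM in control cells and 226 and 190.1 CPM in Dox cells, 2.92-fold higher (log2 fold change 1.55, SE 0.10, edgeR adjusted p = 0.000256). Both relatives lay well above their controls in each Dox library, and both passed under all 18 alternatives. HSPB6, a small heat shock protein of muscle, rose by 1.28 from 33 and 35 counts to 88 and 76 counts. DNAJC2, a J-domain protein of the ribosome, rose by 0.38, and it did not pass by DESeq2 or when either control library was left out.

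Among 25 cochaperones of HSP70 and HSP90, 1 rose, 4 fell and 20 did not pass (median -0.04). CACYBP, an HSP90-associated adaptor of ubiquitin ligases, fell from 34.5 to 24.6 CPM (log2 fold change -0.49, SE 0.08, edgeR adjusted p = 0.0061), and HIKESHI, which carries HSP70 into the nucleus, fell from 27.2 to 20.3 CPM (log2 fold change -0.42, SE 0.08, edgeR adjusted p = 0.0113). The other 2 that fell, PPID (-0.42), an HSP90-bound prolyl isomerase, and CDC37L1 (-0.32), were named after their values were seen. So was BAG2, a nucleotide exchange factor that restrains the ubiquitin ligase STUB1, which rose from 65.5 ± 1.81 to 100.3 ± 11.8 CPM (SD, n = 2 each, log2 fold change 0.62, SE 0.10, edgeR adjusted p = 0.0059), but its call was lost once control replicate 2 was left out (adjusted p by edgeR 0.0531, between 7.35e-68 and 0.85 over its alternatives). STIP1 and AHSA1 were also named after their values were seen. STIP1, the adaptor between HSP70 and HSP90, had a log2 fold change of -0.003 and AHSA1, which activates the ATPase of HSP90, one of -0.05. Without control replicate 1, control replicate 2, Dox replicate 1 or Dox replicate 2, respectively 1, 0, 5 and 7 cochaperones rose and 0, 0, 6 and 14 fell, against the all-gene shares above.

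The remaining lists held few calls. Of 14 subunits of the cytosolic chaperonin, which folds actin and tubulin, and of its partner prefoldin, 0 rose and 3 fell by edgeR, with 0 and 4 at an unadjusted p under 0.05 and 0 and 3 by DESeq2 (median -0.15). CCT2 fell from 109.6 ± 2.23 to 81.2 ± 3.45 CPM (log2 fold change -0.43, SE 0.07, edgeR adjusted p = 0.00749) and CCT5 from 147 ± 1.73 to 114 ± 6.37 CPM (log2 fold change -0.37, SE 0.08, edgeR adjusted p = 0.0145; SD, n = 2 each). The other was PFDN4 (-0.46), a choice made after seeing its value. Without either control replicate 0 of the 14 fell, and without Dox replicate 1 or Dox replicate 2, 9 and 8 fell.

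Of 8 mitochondrial chaperones, 0 rose and 2 fell by edgeR, with 0 and 3 at an unadjusted p under 0.05 and 0 and 2 by DESeq2 (median -0.19). Leaving out control replicate 1, control replicate 2 or either Dox replicate gave 1, 2, 4 and 4 falls. HSPA9, the mitochondrial HSP70, fell from 220.2 ± 2.29 to 148 ± 5.82 CPM (SD, n = 2 each, log2 fold change -0.57, SE 0.07, edgeR adjusted p = 0.00267), and its exchange factor GRPEL2 fell by 0.56 (SE 0.08, edgeR adjusted p = 0.00404). HSPD1 and HSPE1, the mitochondrial chaperonin pair, had log2 fold changes of -0.03 and -0.003 and were named after their values were seen. GRPEL2 did not pass when control replicate 1 was left out (edgeR adjusted p = 0.0509, range 1.02e-21 to 1 over its alternatives). Of 5 other heat shock factors and their binding proteins, 0 passed by edgeR or DESeq2, with 0 at an unadjusted p under 0.05. Without Dox replicate 1, 2 of them (HSF2 and HSBP1) were called lower, and without Dox replicate 2, 1 (HSBP1L1) was called higher, all 3 being named after their values were seen.

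Of 8 other genes tied to the heat shock response, 2 rose, 1 fell and 5 did not pass (median 0.006). IER5, an immediate early gene that acts on HSF1, rose from 34.2 ± 0.769 to 45.3 ± 5.46 CPM (SD, n = 2 each, log2 fold change 0.40, SE 0.10, edgeR adjusted p = 0.0269), and HMOX1, which breaks down haem, from 8.51 ± 0.721 to 12.3 ± 2.25 CPM (log2 fold change 0.53, SE 0.15, edgeR adjusted p = 0.0408). SERPINH1, the collagen chaperone HSP47 of the endoplasmic reticulum, fell from 950.2 ± 3.53 to 475 ± 87.3 CPM (SD, n = 2 each, SE of the log2 fold change 0.13, edgeR adjusted p = 0.00257) and was named after its value was seen. Neither IER5 nor HMOX1 passed when either control library was left out. BAG3, a cochaperone and textbook HSF1 target also named after its value was seen, was at 0.20 (edgeR adjusted p = 0.109).

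**Figure D5:**
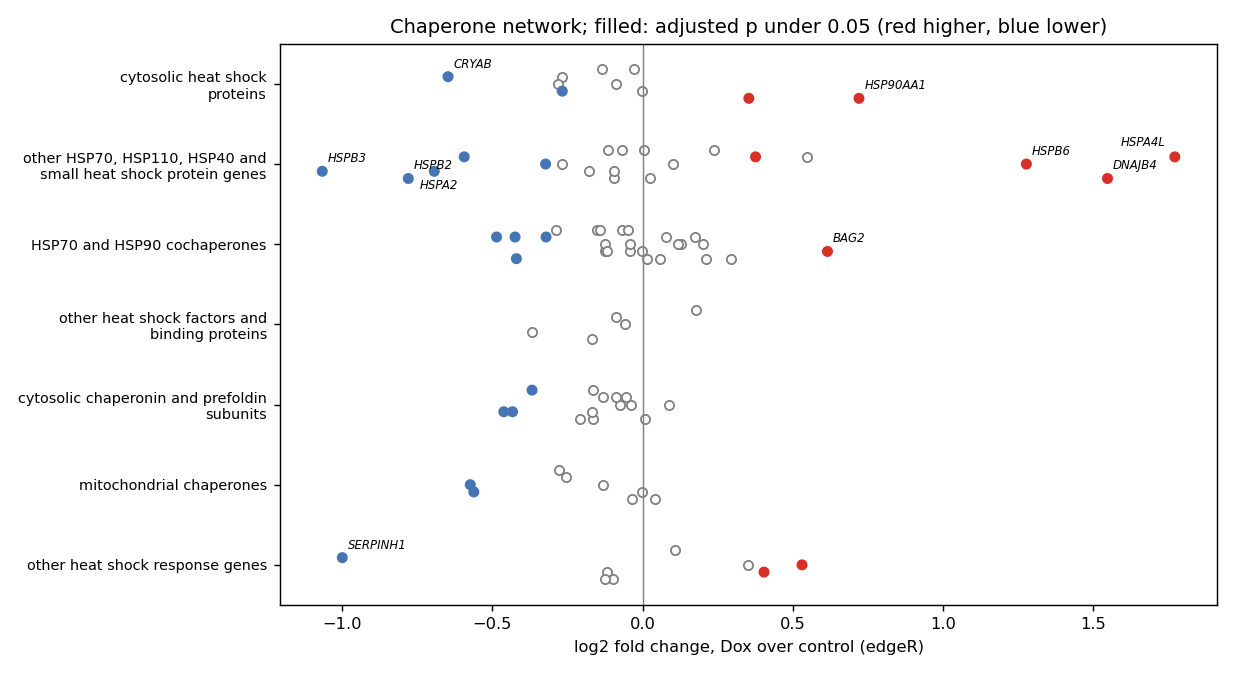
Log2 fold change, Dox over control, of 80 tested chaperone network genes and the 10 members by list, with filled points for genes past the edgeR threshold. HSPA4L (1.77) and DNAJB4 (1.55) lie highest, HSPB3 (-1.07) and SERPINH1 lowest among the genes called, and most points lie near 0.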

How the data were processed

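Total RNA from 2 control and 2 Dox libraries was analysed. The submitters' processing notes name hg38 and the tools cutadapt, STAR, Picard and RSEM, without versions, and strand settings are not given. The deposited expected counts, named so per the file headers, are estimated reads per gene. They were rounded to whole numbers. The deposited TPM values, per the file headers, are scaled by effective length to a common total. FPKM values, also deposited per the file headers, were left aside.

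Genes passed edgeR's filterByExpr (minimum count 10, minimum total 15), were scaled by TMM and tested with glmQLFit and glmQLFTest, group being the only term. The standard error is the log2 fold change divided by the square root of F. Adjusted p-values (Benjamini-Hochberg, threshold 0.05) run over all 16749 genes. The test was checked on simulated data. Coordinates and GC content are from GENCODE 29, matched by 99.5% of identifiers. Software was edgeR 4.0.16, DESeq2 1.42.0 and limma 3.58.1 under R 4.3.3, with Python 3.11.15.

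The members, gene lists and markers were chosen with earlier results of these data known. The rule named all members and, from each list, in the direction with more calls, the 2 genes of lowest adjusted p. Other scalings, low-count filters and tests were tried, as were log TPM, a 1.5-fold threshold, a replicate block, GC offsets and the removal of small RNAs, mitochondrial RNAs or single libraries. The sum with AL671762.1 was added after seeing the data.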

Additional observations from a re-analysis of the deposited data

How the results depend on the processing

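Members called lower numbered 1 with library totals, 1 with the filter at 1 CPM, 1 with DESeq2, 4 without a filter on low counts, 4 with GC offsets and 4 with GC offsets and the replicate block, against 2 in the reported fit, while 2 were higher in each of these. All genes called lower were 9.96%, 15%, 11%, 9.85%, 20.5% and 21.8% in the same order, and GC offsets alone gave 4071 higher and 3432 lower genes. Limma on log2(TPM + 1) gave 596 higher and 198 lower genes, 0 and 0 members and 3 and 0 network genes. Limma on log2(TPM + 0.1) gave 637 and 198, 0 and 0, and 3 and 0, and glmTreat at a 1.5-fold threshold 787 and 480, 0 and 0, and 2 and 2. Network genes called higher were 12 with GC offsets and 14 with GC offsets and block, which also gave 4277 higher and 3647 lower genes in all. Library totals gave 3027 higher and 1668 lower genes, against 2764 and 2309 with TMM. Leaving out 1 library at a time gave 1368 to 4654 genes higher and 1000 to 5017 lower, 1 to 3 members higher and 1 to 7 lower, 3 to 18 network genes higher and 6 to 39 lower, and -0.45 to 0.0398 for the log2 fold change of the HSPA1A and HSPA1B sum. The high counts came without a Dox library, where the lone one is assumed to vary like the controls. HSPA1B ranged from -0.30 without Dox replicate 2 to 0.19, a reversed sign, without Dox replicate 1. The median of all genes moved to 0.124 without a filter and 0.126 on log2(TPM + 0.1).

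The replicate block gave 2972 higher and 2511 lower genes, 2 and 3 members (HSPB1 added) and 9 and 16 network genes. Same-numbered libraries correlated at 0.0488 in their deviations, with only 2 pairs, so the numbers are not treated as pairing. Precision is limited by the 2 libraries a group: standard errors of the members' log2 fold changes ran from 0.07 to 0.16, the largest being those of HSPA1A, HSPA1B and HSF1.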
